A study of Mus musculus with 36 samples.

Results

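Neuropeptide precursor genes encode the proteins from which neurons cut short signalling peptides. The 10 genes described here are Tac1, Tac2, Cck, Penk, Pdyn, Trh, Crh, Nts, Cartpt and Adcyap1, taken by gene symbol from the 55450, 53379 and 54146 gene rows of the count tables of 1, 2 and 3 months. The libraries came from mice in which Tpp1, the gene of the lysosomal tripeptidyl peptidase 1, was disrupted by gene targeting, a model of the childhood disease CLN2. Tpp1-/- mice and unaffected siblings of the same age came from crosses of heterozygous mice, and RNA was taken from whole forebrain/midbrain (F/M) and whole cerebellum (Cb), so the levels are averages over all cells of a dissected region. In GRCm38 Tac1 lies at chr6:7554879-7565834 (plus strand), Pdyn at chr2:129686565-129699844 (minus strand) and Cartpt at chr13:99898489-99901091 (minus strand). Each of the 12 groups (2 regions, 3 ages, 2 genotypes) held 3 libraries, 36 in all. Controls were labelled wild type, except replicate 3 at 1 month, which was Tpp1+/- in both regions. All mice of 2 months were male, and 1 mouse per group of 1 and of 3 months was female, with the same replicate number in both genotypes.

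Libraries held 17637111 to 29942380 counted reads at 1 month, 10609896 to 27048487 at 2 months and 16823871 to 23545443 at 3 months. The level of Tpp1 itself was lower in the 18 Tpp1-/- libraries, at 16.1 to 27.8 CPM, than in every control. Wild-type controls of 1 and 2 months had 69.7 to 111 CPM, and the heterozygous controls of 1 month 46.6 and 55.9 CPM. Controls of 3 months, all labelled wild type, had 42.1 to 43.4 CPM in F/M and 50.8 to 56.0 CPM in Cb. These lay near the heterozygous values, so across ages Tpp1 did not separate the 2 control genotypes. CPM is the read count of a gene scaled to a common library size, here after TMM scaling within an age. The 12 cerebellar markers were all called higher in control Cb than in control F/M at each age, as the labels of the regions imply.

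Neuropeptide precursors enter the secretory pathway, are cut by prohormone convertases in dense-core vesicles and yield peptides that act on G protein-coupled receptors, mostly over longer times and distances than fast transmitters. Penk and Pdyn encode the opioid precursors proenkephalin and prodynorphin, abundant in striatal projection neurons, and Tac1 encodes the precursor of substance P and neurokinin A, which striatal and midbrain neurons make. Cck is widely used by cortical and thalamic neurons. Peptidases that act on such peptides include TPP1, which removes tripeptides from free amino ends in the lysosome and can cleave small peptides such as substance P and cholecystokinin in vitro. The comparison asked whether the mRNA of these precursors differed between Tpp1-/- and control brain, by region and by age.

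Many neuropeptide genes are classic targets of CREB, a factor that binds the cAMP response element, whose full letters are TGACGTCA and whose shorter core is TGACG. The 250 bases before the RefSeq start (GRCm38.p6) could be read for 8 of the 10 genes, and for Penk and Crh no window was listed. The full element stood in 1 of these 8 windows, Cartpt, and in 1.599% of the 27025 windows of all genes. The core, read on both strands and counted also inside the full element, stood in 6 of the 8 (Tac1, Cck, Trh, Nts, Cartpt and Adcyap1) and in 17.8% of all windows. Pdyn and Tac2 held neither in this window, and Trh and Nts held 1 core each. Such a match describes letters only. Windows were counted from the RefSeq start, so the Cartpt site and the Tac1 site nearer to the start lie within the wider GENCODE bounds of these genes. In Cb of 2 months the mRNA of Tac1 and Cartpt fell furthest, and Cck and Adcyap1 passed the adjusted p with smaller changes. The sites of these genes are shown 5′ to 3′ on the strand of the gene. The element, its core or the core's reverse complement CGTCA stands in capitals.
Cartpt, chr13:99900777-99900806, minus strand, element beginning 112 bases before the start: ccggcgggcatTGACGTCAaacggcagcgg
Tac1, chr6:7554853-7554879, plus strand, 197 bases before: ccctaaaattgCGTCAtttcgaacaca
Tac1, chr6:7555007-7555033, plus strand, 43 bases before: ctctacaggctCGTCAcgcctgagata
Cck, chr9:121495726-121495752, minus strand, 47 bases before: ctgctggactgCGTCAgcactgggtaa
Adcyap1, chr17:93198915-93198941, plus strand, 91 bases before: gactaggatgcTGACGtcttttactga

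All 10 precursors were lower in Cb than in F/M of control mice at each of the 3 ages. A gene was called in this comparison at an adjusted p below 0.1 and a fold change of at least 1.5. At 1, 2 and 3 months 10 of 10 members were called lower. Of all tested genes 36.9%, 39.3% and 37.7% were called in either direction. Those called lower were 3783 of 17916, 3775 of 17229 and 3429 of 17224. In fits of the Cb libraries alone 7, 6 and 8 of the members passed the low-count filter at these ages. The others were tested through their counts in F/M, the region where they are high, so their calls could go only 1 way. Adcyap1, which encodes PACAP, and Penk differed least, with Cb means of 43.4% to 58.2% and 44.8% to 51.8% of the F/M means over the ages. Cck stood at 16.6% to 20.8%, Nts (neurotensin) at 11.9% to 21.7%, Tac1 at 12.4% to 14.04% and Cartpt, the precursor of the CART peptides, at 7.12% to 25.0%. The corticotropin-releasing hormone gene Crh reached 4.01% to 11.7% and the thyrotropin-releasing hormone gene Trh 2.24% to 7.56%. Pdyn stood at 2.43% to 3.84% and Tac2, the neurokinin B precursor, at 1.80% to 4.48%, and these 2 genes and Trh had the 3 lowest ratios at each age. Without Cb control replicate 3 of 3 months 9 of 10 members were called at that age, all but Adcyap1. In the Tpp1-/- mice of 2 months the Cb means relative to F/M were 1.88% for Tac1, 1.03% for Pdyn and 0.795% for Cartpt. They were 0.447% for Trh, 0.921% for Tac2 and 1.32% for Crh, each from few Cb reads.

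**Figure D1:**
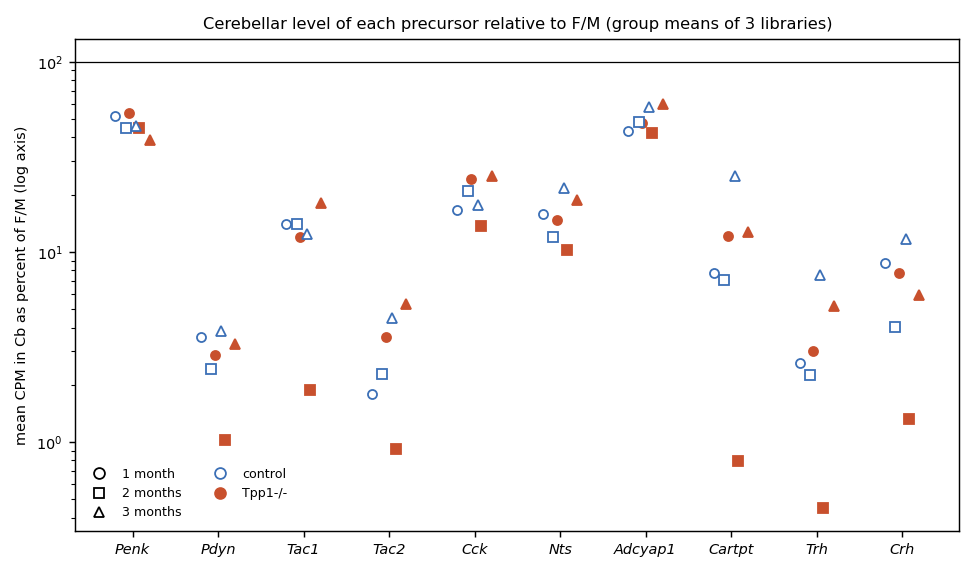
Mean CPM in Cb as a percent of the mean CPM in F/M (log axis) for each precursor gene, with 1 point per age (circle, square, triangle for 1, 2 and 3 months) and genotype (open blue control, filled red Tpp1-/-), each the ratio of 2 means of 3 libraries. All points lie under the line at 100%, and the Tpp1-/- squares of 2 months for Tac1 (1.88%) and Cartpt (0.795%) lie far below the control points of the same genes.

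Levels between genes were compared per kilobase of exon (CPM per kb). Penk and Cck led in both regions at every age. In control F/M of 2 months Penk had 132 to 168 CPM per kb and Cck 102 ± 9.61 CPM per kb (SD, n = 3), followed by Tac1 with 16.6 ± 1.46 and Pdyn with 16.4 ± 1.19. Tac1 and Pdyn overlapped, as did Adcyap1 (11.7 ± 1.07) with Nts (10.7 ± 0.536). Trh (7.55 ± 1.64), Cartpt (7.48 ± 1.19), and Tac2 (5.61 ± 1.31) each overlapped with the next gene, the last being Crh (3.85 ± 0.747). Crh was lowest in control F/M at all 3 ages. In control Cb of 2 months the order was Penk (66.8 ± 2.21 CPM per kb), Cck (21.3 ± 1.33), Adcyap1 (5.65 ± 0.262), Tac1 (2.33 ± 0.363) and Nts (1.27 ± 0.185), none of which overlapped with the next. The other 5 genes lay at 0.532 or lower on this scale and overlapped with their neighbours. Penk made up 38.8% to 46.0% of the summed CPM of the 10 genes in F/M libraries and 56.3% to 78.9% in Cb libraries. Adcyap1 had an exon length of 3777 bases in the annotation used at 1 month and of 2088 bases at the other ages, so its values per kilobase are not comparable across ages. In the 1-month annotation Penk alone among the members overlaps another gene, A830012C17Rik on the opposite strand, which had at most 9 reads per library at that age.

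**Figure D2:**
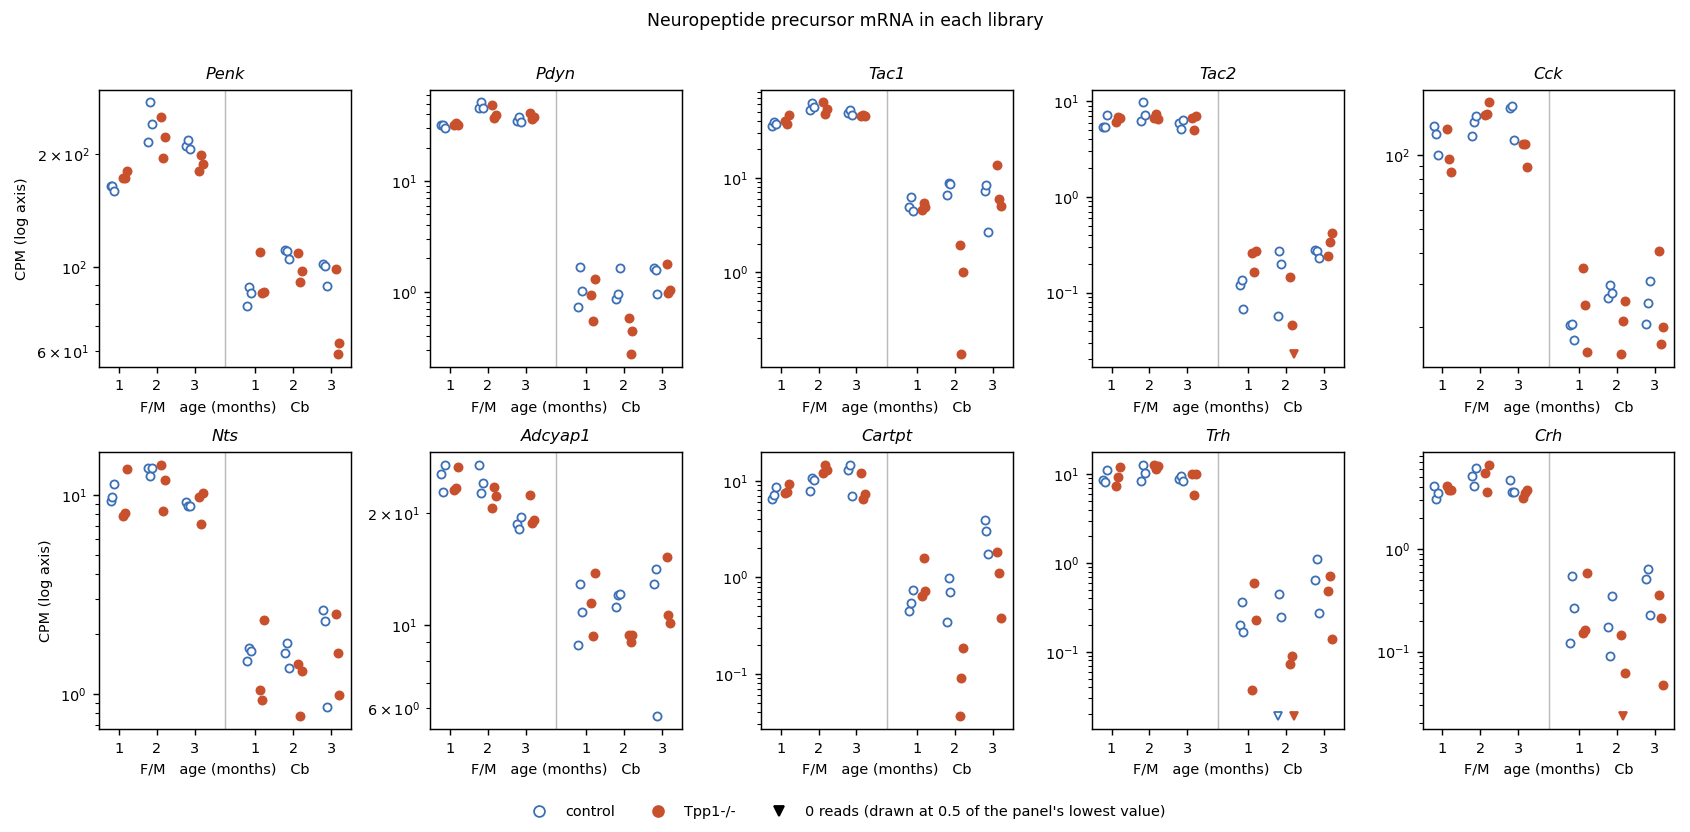
CPM (log axis) of the 10 precursor genes in each of the 36 libraries, by region and age in months, with open blue points for control and filled red points for Tpp1-/- libraries, and triangles for libraries with 0 reads. In F/M the points of the genotypes lie close together, whereas the 3 Tpp1-/- Cb libraries of 2 months lie under the 3 controls for Tac1, Pdyn, Cck, Adcyap1 and Cartpt.

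In F/M no precursor was called at any age. At 1 month the fold changes of the 10 genes (log2, Tpp1-/- against control) lay between −0.19 and 0.14, 7 of them positive, and 0.0112% of all tested genes were called. At 2 months they lay between −0.21 and 0.47 with 0.737% of genes called, and at 3 months between −0.47 and 0.12 with 0.464% called. DESeq2 and limma-voom also called 0 members in these 3 comparisons, and 1 member, Cartpt by edgeR, reached an unadjusted p under 0.05 at 2 months by each of the 3 tools, against 0 at the other ages. Of all tested genes 16.9% did so at 2 months by edgeR. Penk, the most abundant of the genes, had 165, 165 and 159 CPM in control F/M of 1 month and 173, 173 and 180 CPM in Tpp1-/- F/M. At 3 months its controls had 210, 218 and 207 CPM and its Tpp1-/- libraries 180, 199 and 188 CPM. The groups did not overlap in either case, as for 14.8% and 24.1% of all tested genes at these ages, but lay in opposite orders, and neither difference passed the test (log2 fold changes of 0.11, SE 0.09, and −0.16, SE 0.15; adjusted p = 1 by edgeR at both ages).

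Cartpt had the largest positive value in F/M. At 2 months its 3 controls had 7.81, 10.6 and 10.2 CPM and its 3 Tpp1-/- libraries 12.1, 14.5 and 13.01 CPM. All Tpp1-/- libraries were above all controls, with a log2 fold change of 0.47 (SE 0.15, edgeR adjusted p = 0.142), and 18.3% of all tested genes were likewise separated in this comparison. Astrocyte markers summed to 4680 to 5655 CPM in these controls and 5954 to 7357 CPM in Tpp1-/-, pan-neuronal markers to 7336 to 7406 and 6176 to 7228 CPM, with 0 of 8 genes called in either list. Called higher here were 9 of 12 choroid plexus, 3 of 5 hindbrain and isthmus, 2 of 9 hypothalamus, 2 of 12 cerebellar and 1 of 13 midbrain and thalamus markers. Of 12 cortex and striatum markers 0 were called. The part of any of these markers in the value of Cartpt was not tested. Cck was 119.7, 137 and 144 CPM in control F/M of 2 months against 146, 147 and 164 CPM in Tpp1-/-. At 3 months Cck was 156, 159 and 115 CPM in controls and 111, 111 and 89.8 CPM in Tpp1-/- F/M, with groups in the opposite order (log2 fold change −0.47, SE 0.25, edgeR adjusted p = 0.943). Neither Cck difference passed the test. Tac1 in F/M stayed within 35.4 to 62.5 CPM over all ages and genotypes, with overlapping groups at each age. Over the same 18 libraries Pdyn ranged from 30.3 to 51.3 CPM, Adcyap1 from 18.1 to 26.9 CPM and Nts from 7.14 to 14.2 CPM. Trh ranged from 5.79 to 12.8 CPM, Tac2 from 5.08 to 9.75 CPM and Crh, the lowest, from 3.08 to 6.60 CPM. For these 6 genes the groups overlapped at every age.

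In Cb of 1 month no precursor was called, with 0.0112% of all tested genes called. DESeq2 and limma-voom called 0 as well, and edgeR gave 1 unadjusted p under 0.05 among the members, for Tac2, and such a p for 7.66% of all tested genes. The value of Tac2 rests on 2 to 3 reads per control library and 3 to 7 reads per Tpp1-/- library (0.122, 0.135 and 0.0671 CPM against 0.263, 0.164 and 0.271 CPM, log2 fold change 1.15, SE 0.46, edgeR adjusted p = 0.63). Tac1 was 4.86, 6.26 and 4.497 CPM in controls and 4.58, 5.37 and 4.88 CPM in Tpp1-/- Cb, with a log2 fold change of −0.07 (SE 0.14). Without Tpp1-/- replicate 3, 1 member was called at this age, Cck, whose 3 Tpp1-/- libraries had 34.6, 24.6 and 15.8 CPM against 20.4, 20.6 and 17.7 CPM in controls.

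In Cb of 2 months Tac1 and Pdyn fell, and so did Cartpt, at a level of few reads. These were 3 of 10 members called, all lower in Tpp1-/-, beside 2.05% of all tested genes called, of which 310 were lower and 43 higher. Tac1 was 6.50, 8.73 and 8.54 CPM in the controls and 1.93, 0.136 and 1.00 CPM in the Tpp1-/- libraries. The Tpp1-/- values lay far below the controls and were themselves spread, from 53 reads in replicate 1 to 3 reads in replicate 2. The log2 fold change of Tac1 was −2.86 (SE 0.32, edgeR adjusted p = 1.27e-05). Cartpt was 0.345, 0.995 and 0.699 CPM in the controls against 0.0364, 0.0908 and 0.187 CPM in Tpp1-/-, a log2 fold change of −2.85 (SE 0.56, edgeR adjusted p = 0.00527). The groups of Cartpt did not overlap, but the change rests on 42 reads over the 3 controls and 6 reads over the 3 Tpp1-/- libraries. Pdyn was 0.863, 0.949 and 1.65 CPM in the controls and 0.582, 0.273 and 0.437 CPM in Tpp1-/- (log2 fold change −1.38, SE 0.36, edgeR adjusted p = 0.0475). Its call was lost without control replicate 3 (adjusted p = 0.331), without Tpp1-/- replicate 2 (0.243), without Tpp1-/- replicate 3 (0.116), with limma-voom (0.179) and with the replicate number as a block (0.11). Where only the 6 Cb libraries were fitted, 6 of the 10 members passed the low-count filter, of which Tac1 and Pdyn were called. Cartpt, Tac2, Trh and Crh did not pass it and were tested in Cb of 2 months because of their higher counts in F/M of both genotypes.

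Cck and Adcyap1 passed the adjusted p in Cb of 2 months but not the fold change of 1.5. Cck was 26.2, 29.7 and 27.5 CPM in controls and 15.5, 21.2 and 25.6 CPM in Tpp1-/- (log2 fold change −0.45, SE 0.13, edgeR adjusted p = 0.088), and was called, at −0.61, without Tpp1-/- replicate 3. Adcyap1 was 11.2, 12.1 and 12.1 CPM in controls and 9.39, 9.04 and 9.43 CPM in Tpp1-/-, with all Tpp1-/- libraries below all controls (log2 fold change −0.35, SE 0.10, edgeR adjusted p = 0.0789). The groups of 5 of the 10 members did not overlap, against 18.1% of all tested genes. Penk, by contrast, gave 112, 111 and 105 CPM in controls and 109, 91.3 and 97.8 CPM in Tpp1-/-, with overlapping groups and a log2 fold change of −0.13 (SE 0.10, edgeR adjusted p = 0.767). Nts gave 1.61, 1.81 and 1.35 CPM against 1.42, 0.772 and 1.31 CPM, also overlapping (log2 fold change −0.44, SE 0.29).

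Trh, Crh and Tac2 were near the limit of detection in Cb, with a median of 5, 4.5 and 4.5 reads over the 18 libraries. At 2 months Trh had 0, 10 and 5 reads in the controls and 2, 2 and 0 in Tpp1-/-. A count of 0 allowed up to 0.173 CPM in that control library and up to 0.187 CPM in that Tpp1-/- library, by the limit of 3 reads, which covers counting error only. Crh had 3, 2 and 7 reads against 4, 0 and 1, and Tac2 had 1, 6 and 4 reads against 4, 1 and 0. For none of these genes did the test detect a genotype difference at this depth (edgeR adjusted p = 0.491, 0.718 and 0.726).

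**Figure D3:**
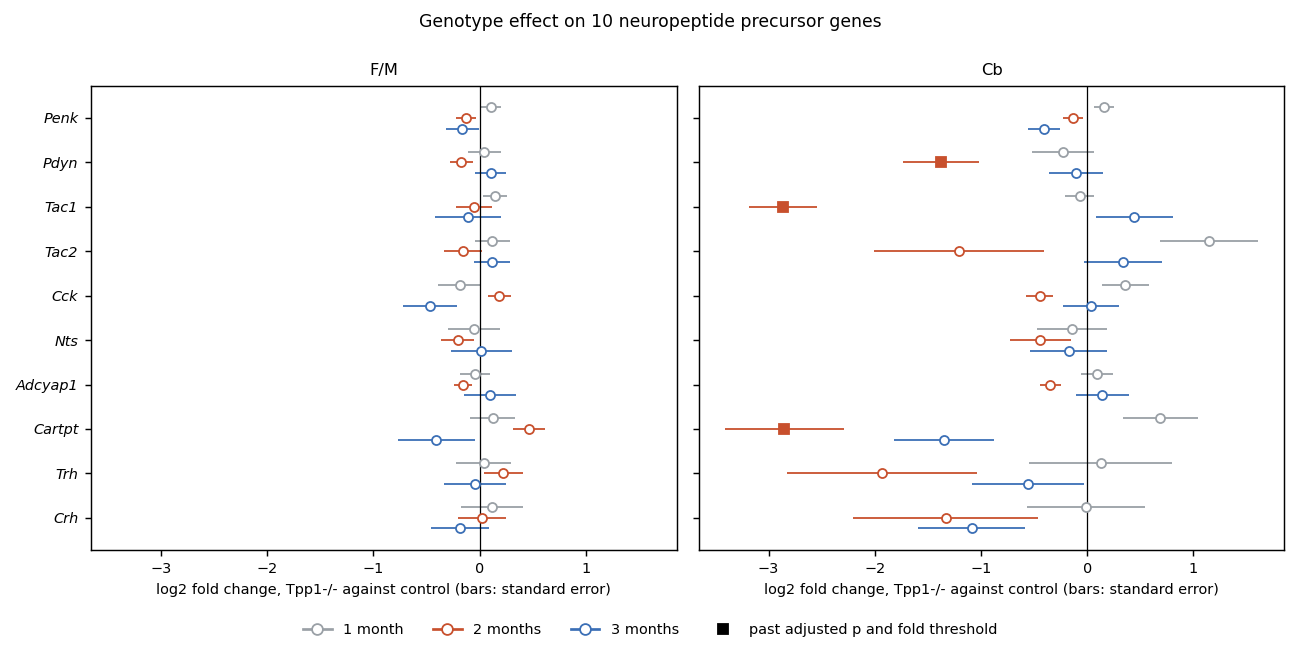
Log2 fold change of Tpp1-/- against control with its standard error for the 10 precursor genes in F/M (left) and Cb (right), at 1 month (grey), 2 months (red) and 3 months (blue); filled squares passed both the adjusted p of 0.1 and the fold change of 1.5. The 3 filled squares are Tac1 (−2.86), Cartpt (−2.85) and Pdyn (−1.38) in Cb of 2 months.

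The difference between the regions was tested directly as an interaction (the genotype effect of Cb less the one of F/M), called at an adjusted p below 0.1 with no fold minimum. At 2 months 3 of 10 members were called, all with the lower effect in Cb, and 2.97% of all tested genes were called. The differences (log2) were −2.81 for Tac1 (SE 0.37, edgeR adjusted p = 0.00012), −0.63 for Cck (SE 0.17, edgeR adjusted p = 0.0626) and −3.32 for Cartpt (SE 0.57, edgeR adjusted p = 0.00233). Cartpt passed the low-count filter through its F/M counts, and its Cb side rests on 42 control and 6 Tpp1-/- reads. Cartpt and Tac1 were called in each fit that left out 1 library, whereas Cck lost its call in 5 of those 12 fits. For Pdyn the difference of −1.21 (SE 0.37) did not pass (edgeR adjusted p = 0.13), but DESeq2 called it (adjusted p = 0.0301), as did edgeR without F/M control replicate 2 (0.09) and without F/M Tpp1-/- replicate 2 (0.0882). At 1 month and at 3 months 0 members were called by edgeR, DESeq2 and limma-voom, and 0 members had an unadjusted p under 0.05. The share of all genes called was 0% at 1 month, where 347 genes had an unadjusted p under 0.05, and 0.00581% at 3 months.

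Midbrain and thalamus markers moved with these differences, although the list did not separate the regions. In controls of 2 months 2 of its 13 tested genes were called lower and 3 higher in Cb than in F/M (list median −0.07, log2). Of the 13 tested genes of a list of 14 midbrain and thalamus markers, 8 were called lower and 0 higher in Tpp1-/- Cb of 2 months, with a list median of −1.44 on the log2 scale against 0 over all genes. Their summed level was 164 to 202 CPM in the 3 controls and 68.3 to 84.0 CPM in the 3 Tpp1-/- libraries, without overlap. Gata3, a transcription factor of midbrain and thalamic neurons, had no read in any of the 3 Tpp1-/- libraries, against 1.23 ± 0.383 CPM (SD, n = 3) in controls. Lhx9, of the same lineages, was 15.4 ± 2.62 CPM in controls and 1.36 ± 0.215 CPM in Tpp1-/- (log2 fold change −3.49), and Pax7, of the dorsal midbrain, was 1.03 ± 0.206 and 0.0243 ± 0.0420 CPM. In F/M of the same age the summed level went the other way, from 183 to 197 CPM in controls to 248 to 254 CPM in Tpp1-/-, and 1 of the 13 genes was called, Sox14, which was higher and is named here as the single call. In F/M of 3 months, where Penk and Cck lay below the controls without passing the test, the sums were 223 to 228 CPM in controls and 178 to 210 CPM in Tpp1-/-, with 0 of 13 genes called. At 1 month the sums in Cb overlapped, with 160 to 174 CPM in controls and 155 to 187 CPM in Tpp1-/-. Markers of cortex and striatum included 2 of 12 called lower in Cb of 2 months, Drd2 (4.93 ± 0.356 against 0.689 ± 0.256 CPM) and Lhx2 (1.70 ± 0.226 against 0.252 ± 0.146 CPM). Hindbrain and isthmus markers had 0 of 5 tested genes called in Cb of 2 months, with sums of 44.8 to 51.3 CPM in controls and 44.2 to 69.7 CPM in Tpp1-/-, and 3 of 5 called higher in F/M of 2 months, among them Slc6a5 with groups that did not overlap. None of the 12 cerebellar markers was called between genotypes in Cb at any age, and 2 of 12, Barhl1 and En2, were called higher in F/M of 2 months. The part of tissue composition in the 2-month differences of Tac1, Cartpt and Pdyn was not tested. With whole tissue, fewer cells of a type and less RNA per cell cannot be told apart.

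Within Cb, the levels of several precursors followed the summed midbrain and thalamus markers from library to library. The sum weighs genes by their level. In control Cb of 2 months Slc17a6 gave 87.0 CPM and Tcf7l2 35.0 CPM of a mean sum of 182 CPM. Genes such as Pax7 (1.03 CPM) hardly enter it. Over the 12 Cb libraries of 1 and 3 months, in which the sums of the genotypes overlapped, Pearson's r between log2 levels after subtraction of the age means was 0.95 for Adcyap1 (Spearman's rho 0.93), 0.88 for Nts (0.91), 0.87 for Tac1 (0.80) and 0.75 for Pdyn (0.84). Without the 2 libraries farthest from the median sum, r was 0.88, 0.85, 0.58 and 0.79. For Crh r was 0.62, for Penk 0.49 and for Cartpt 0.35, and without those 2 libraries 0.85, 0.76 and 0.57, so the order of the genes in r depended on them. For Trh r was 0.29, for Cck 0.09 and for Tac2 0.07. These r values are descriptions, over libraries that share their age and its sequencing. Control replicate 3 at 3 months had the lowest sum of the 12 (124 CPM) and also the lowest Tac1 (2.69 CPM), Adcyap1 (5.69 CPM) and Nts (0.865 CPM). Tpp1-/- replicate 1 of the same age had the highest sum of the 12 (200.3 CPM) and also the highest Tac1 (13.6 CPM), Adcyap1 (15.2 CPM) and Pdyn (1.79 CPM).

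**Figure D4:**
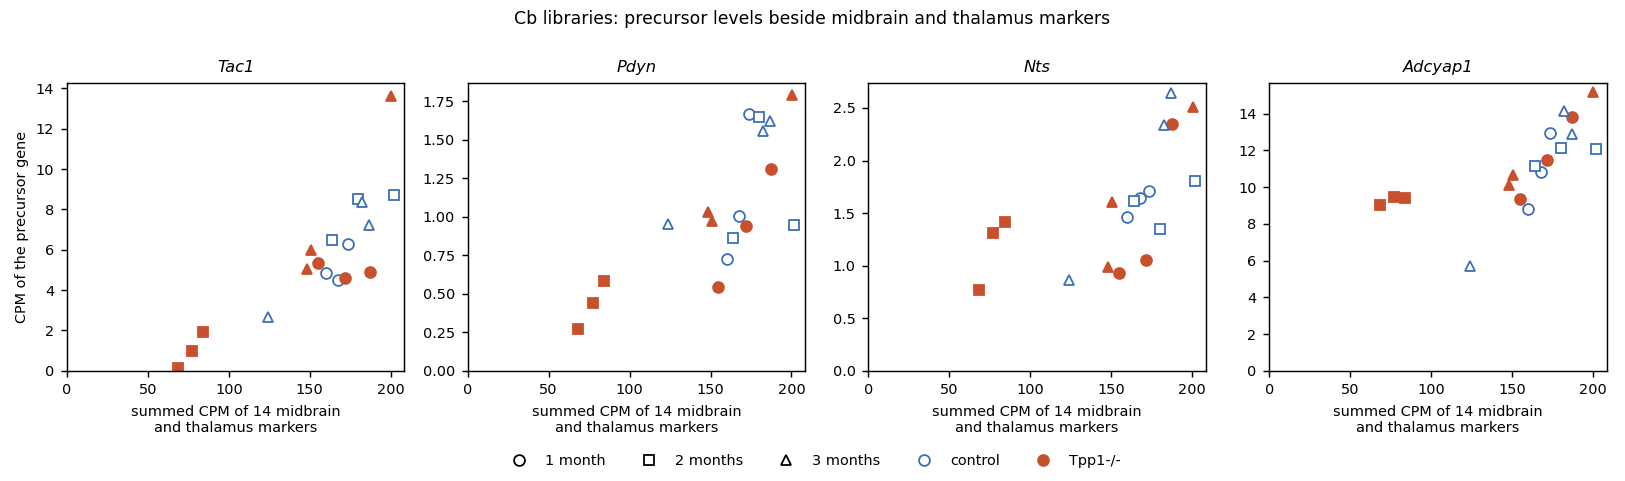
CPM of Tac1, Pdyn, Nts and Adcyap1 against the summed CPM of 14 midbrain and thalamus markers in the 18 Cb libraries (circles, squares and triangles for 1, 2 and 3 months; open blue control, filled red Tpp1-/-). The 3 Tpp1-/- libraries of 2 months lie at sums of 68.3 to 84.0 CPM, apart from all others, and for Tac1 they hold the lowest values.

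In Cb of 3 months no precursor was called, with 0.859% of all tested genes called, and DESeq2 and limma-voom called 0 as well. The 3 genes with an unadjusted p under 0.05 were Cartpt, Penk and Crh, all with negative values, beside 6.49% of all tested genes. Cartpt was 3.90, 3.03 and 1.73 CPM in controls and 1.83, 1.10 and 0.376 CPM in Tpp1-/- (log2 fold change −1.35, SE 0.47, edgeR adjusted p = 0.488), with groups that overlapped in a single pair of libraries. With the replicate number as a block Cartpt was called at this age (log2 fold change −1.44, edgeR adjusted p = 0.0986), and its value was lower in Tpp1-/- within each of the 3 numbers. Penk was 102, 101 and 89.5 CPM in controls and 99.1, 58.8 and 62.9 CPM in Tpp1-/- (log2 fold change −0.41, SE 0.15, edgeR adjusted p = 0.571). Without Tpp1-/- replicate 1 the value of Penk was −0.68 and its adjusted p 0.000417, so this library decided the call. The value of Tac1 was positive at this age with overlapping groups, at 7.24, 8.35 and 2.69 CPM in controls and 13.6, 6.01 and 5.07 CPM in Tpp1-/- (log2 fold change 0.44, SE 0.36, edgeR adjusted p = 0.948). In these libraries 6 of the 10 microglia markers were called higher in Tpp1-/- and the hindbrain markers Dbh and Slc6a2, of noradrenergic neurons, were called lower. The summed hindbrain markers were 50.6 to 105 CPM in controls and 21.6 to 43.1 CPM in Tpp1-/-. The part of these marker genes in the values of Cartpt and Penk was not tested.

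The change of the genotype effect with age was tested over all 36 libraries. In Cb, 1 of 10 members was called for 3 months minus 2 months, against 1.44% of all genes: Tac1, whose effect was 3.32 higher on the log2 scale at 3 months (SE 0.51, edgeR adjusted p = 0.000117). For 3 months minus 1 month in Cb 0 members were called, against 0.458% of all genes. Cartpt (−2.02, SE 0.63, edgeR adjusted p = 0.27) and Penk (−0.56, SE 0.18, edgeR adjusted p = 0.303) had unadjusted p values under 0.05, as had 7.91% of all tested genes. DESeq2 called Cartpt in this comparison. In F/M 0 members were called for 3 months minus 2 months, against 0.393% of all genes, and 0 for 3 months minus 1 month, against 0.153%, also by DESeq2 and limma-voom. Cartpt alone among the members had an unadjusted p under 0.05 by edgeR in F/M, for 3 months minus 2 months (−0.86, SE 0.40, edgeR adjusted p = 0.573), where 8.12% of all tested genes had one. These contrasts share their 3-month libraries. The ages were also counted with different annotations, and age and batch cannot be told apart for the levels themselves.

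Of 18 tested genes in a list of 19 receptors and binding proteins of the same peptides, 6 were called lower and 0 higher in Cb of 2 months and 12 did not pass, with a list median of −0.55 on the log2 scale against 0 over all genes. Tacr1, the substance P receptor, was 2.84 ± 0.518 CPM (SD, n = 3) in controls and 0.394 ± 0.284 CPM in Tpp1-/- (log2 fold change −2.78, SE 0.31, edgeR adjusted p = 1.32e-05). Tacr3, the neurokinin B receptor, was 2.46 ± 0.721 and 0.250 ± 0.199 CPM (log2 fold change −3.16, edgeR adjusted p = 1.16e-05), and Trhr2, a receptor of the thyrotropin-releasing hormone, was 0.503 ± 0.218 and 0.0451 ± 0.0394 CPM (log2 fold change −3.33). In F/M 0 genes of the list were called at any age, and in Cb 0 at 1 month and 1 at 3 months, the delta opioid receptor Oprd1, at 1.56 ± 0.262 CPM in controls and 0.709 ± 0.238 CPM in Tpp1-/- (log2 fold change −1.15, SE 0.23, edgeR adjusted p = 0.031).

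Among 48 other neuropeptide precursors 23 were tested at 2 months, and 3 were called lower and 0 higher in Cb. Vip was 1.83 ± 0.243 CPM in controls and 0.0875 ± 0.0235 CPM in Tpp1-/- (log2 fold change −4.24, edgeR adjusted p = 6.56e-08), Sst, the somatostatin precursor of many inhibitory neurons, was 13.3 ± 0.966 and 2.82 ± 0.802 CPM (−2.23), and Pnoc, the nociceptin precursor, was 3.18 ± 0.371 and 1.67 ± 0.399 CPM (−0.95). In F/M of 2 months 1 was called, Avp, the vasopressin precursor of hypothalamic neurons, which was higher at 6.94 ± 1.87 CPM against 3.77 ± 0.948 CPM in controls. Avp also stands in the list of hypothalamus markers, of which 2 of 9 tested genes were called higher there. Neither at 1 nor at 3 months was a gene of this precursor list called in either region.

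Of 17 genes for peptide processing and dense-core vesicles, 2 were called lower in Cb of 2 months: Vgf, a granin-like precursor (26.7 ± 4.84 against 13.9 ± 2.06 CPM, log2 fold change −0.94), and Qpct, which cyclises N-terminal glutamine (5.32 ± 0.327 against 3.42 ± 0.517 CPM, −0.61). In F/M of 2 months the proSAAS gene Pcsk1n was called higher (120.4 ± 39.8 against 270 ± 55.5 CPM, log2 fold change 1.16, edgeR adjusted p = 0.0108). Of 13 neuropeptide-degrading peptidases only Mme, the neprilysin gene, was called in Cb of 2 months, lower in Tpp1-/- (6.01 ± 1.30 against 3.43 ± 0.289 CPM, −0.82), and 0 in the other 5 comparisons. Immediate early genes, which neurons induce with activity, were called lower in Cb of 2 months (3 of 12), in F/M of 2 months (4 of 12) and in Cb of 3 months (4 of 12). Npas4 in Cb of 2 months was 4.70 ± 1.85 CPM in controls and 1.93 ± 0.2001 CPM in Tpp1-/- (log2 fold change −1.23, edgeR adjusted p = 0.00968). Choroid plexus markers moved in the other direction at 2 months, with 7 of 12 called higher in Cb and 9 of 12 in F/M. The part of either list in the values of the precursors was not tested.

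**Figure D5:**
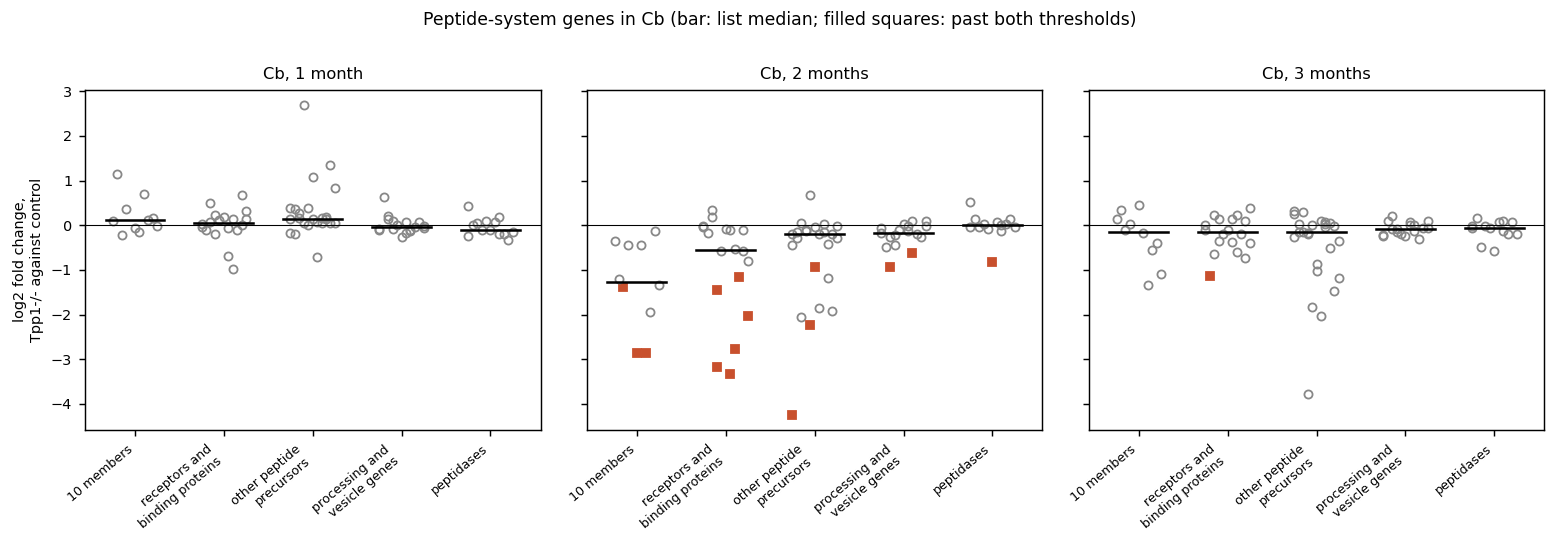
Log2 fold change of Tpp1-/- against control in Cb for each tested gene of 5 lists (the 10 precursors, receptors and binding proteins, other peptide precursors, processing and vesicle genes, peptidases) at 1, 2 and 3 months; bars mark list medians and filled squares the genes past both thresholds. The filled squares among the 10 precursors are Tac1, Cartpt and Pdyn at 2 months; the median bar of the precursors includes Cartpt, Tac2, Trh and Crh, which had few reads in Cb.

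The gene whose log2 level followed each precursor most closely over the 18 libraries of a region, after subtraction of the age means, was taken by the highest Pearson's r. It was picked among the 16713 genes tested at all 3 ages. Being the highest of so many, each r is a description only. In Cb this was Tacr1 for Tac1 (r = 0.96, and 0.92 without the 2 libraries with the most extreme Tac1), Tpgs1 for Cck (0.97), Fgf13 for Adcyap1 (0.92), Zcwpw1 for Nts (0.92), Zwint for Penk (0.89), Begain for Cartpt (0.89) and Adgrg2 for Pdyn (0.88). In F/M it was C1qtnf4 for Cck (0.94), Diras1 for Penk (0.93), Hap1 for Trh (0.92), Rhot2 for Nts (0.86), Numb for Adcyap1 (0.86), Mrpl48 for Tac1 (0.86), Ikzf5 for Crh (0.85), Btf3 for Tac2 (0.84), Tox2 for Cartpt (0.83) and Smg9 for Pdyn (0.82). Without the 2 libraries farthest from a precursor's median, r in F/M lay between 0.71 (Ikzf5) and 0.92 (C1qtnf4). In Cb it lay between 0.81 (Fgf13) and 0.94 (Tpgs1). For Tac2, Trh and Crh in Cb, with medians of 5 reads or fewer, no such gene is named. Among the precursors themselves the closest pair in F/M was Tac1 with Penk (r = 0.85, rho = 0.87). In Cb the closest pairs by r with a median above 20 reads were Tac1 with Pdyn (r = 0.79, rho = 0.78) and Nts with Adcyap1 (r = 0.78, rho = 0.83), while by rho Pdyn with Adcyap1 was the closest (r = 0.68, rho = 0.85). These values describe 18 libraries that share ages and genotypes, and the Cb values include the 3 Tpp1-/- libraries of 2 months.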

How the data were processed

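RNA-seq libraries (TruSeq stranded mRNA, single-end reads of 50 nt) of 36 samples were analysed. The deposited values are raw counts of reads for each gene, with no normalization. The submitters' processing notes name STAR 2.5.2b and mm10. Per the file headers, featureCounts 1.6.3 with GENCODE M21 was used at 1 month, and 1.6.2 with M16 and M18 at 2 and 3 months, with strand settings 1, 2 and 1. The headers list fractional counting of multi-mapping reads, but all values are whole.

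Each age was fitted alone (12 libraries, 4 groups) with the quasi-likelihood test of edgeR 4.0.16 in R 4.3.3, after filterByExpr and TMM scaling, with Benjamini-Hochberg adjustment over all tested genes. Changes of the genotype effect with age used all 36 libraries and the 18322 tested genes shared by the annotations. DESeq2 1.42.0, limma-voom (limma 3.58.1), RLE scaling, no filter, a replicate block, fits of 6 libraries and fits without each library were alternatives. Correlations used log2 CPM with a prior count of 2. Counts of 2 libraries of a group differed by more than sampling noise (chi-square per degree of freedom at least 1.43). The labels do not say whether samples of a group are separate litters, and p-values cover the spread between these samples.

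The members and gene lists were chosen with earlier results of these data known. All members are named. Of each other list at most 3 called genes per comparison with the largest change and no overlap of groups are named. Sox14, the single call of its list, was named outside this rule after its values were seen. So were Slc17a6 and Tcf7l2, for their level within the marker sum. The labels do not say whether same-numbered libraries of both regions came from 1 mouse. Deviations of every same-numbered pair correlated above 0.1 only between F/M and Cb controls of 1 month (0.124 to 0.198), and in no region or age between control and Tpp1-/- libraries. All 3 best matches also had their own number between F/M and Cb of Tpp1-/- at 1 month (0.0947 to 0.16) and 2 months (0.0579 to 0.0987). The same held between genotypes in F/M of 1 month (0.0658 to 0.214). With the number as a block across regions, the regional difference of 2 months again called Tac1, Cck and Cartpt.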

Additional observations from a re-analysis of the deposited data

Results flagged for a closer look

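The genotype effect of 3 precursors at 2 months differed between the regions by the test of the difference itself. The effect of Cb less the one of F/M (log2) was −2.81 for Tac1, −0.63 for Cck and −3.32 for Cartpt. In this test 2.97% of all tested genes were called, and 8 of 13 midbrain and thalamus markers were called lower. Cck lost its call in several of the fits that left out 1 library. Cartpt was tested through its F/M counts and rests on 42 control and 6 Tpp1-/- reads in Cb. For Tac1 the effect was lower in Cb by all 3 Tpp1-/- libraries against all 3 controls, while the groups overlapped in F/M. Cartpt had non-overlapping groups in opposite orders in the 2 regions, and so had Cck. In Cb the effect of Tac1 at 3 months also differed from that at 2 months, by 3.32.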

How the results depend on the processing

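Of 2311 member values over all alternatives 123 changed sign, 4 of them above 0.5 on the log2 scale, and none of these was a called value. In Cb of 2 months 5 members passed with the adjusted p alone. In Cb of 3 months 1 member was called without the low-count filter and 1 under the replicate block, in both fits Cartpt, which was not called otherwise. Same-numbered control and Tpp1-/- libraries did not pass the check of pairing, though at 1 and 3 months sex goes with the number, and the replicate block gave 2 calls in Cb of 2 months, without Pdyn. At 1 month, where F/M and Cb controls passed it, the block across regions gave 10 regional calls and 0 for the regional difference, as without it. Without the low-count filter 5 members were called in the regional difference at 2 months, 2 in the age difference of 3 and 2 months in F/M, 2 in the same difference in Cb, and 2 in that of 3 and 1 months in Cb, where DESeq2 and the replicate block each called 1. Fits without each library in turn gave 0 to 1 calls in Cb of 1 month, 0 to 1 in Cb of 3 months, and, in Cb, 1 to 2 calls for 3 minus 2 months and 0 to 2 for 3 minus 1 months. The higher count came without Tpp1-/- replicate 3 at 1 month and without Tpp1-/- replicate 1 at 3 months. Leaving out the Tpp1+/- controls at 1 month, an alternative chosen after seeing the data, gave 0 calls in both regions. Causes were not tested, other than that a fit without the filter tests more genes of few reads. Depth limits Trh, Crh and Tac2 in Cb.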
